A study of Rattus norvegicus with 64 samples.

Results

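The transcripts followed here are 10 genes of natural killer (NK) cells and cytotoxic lymphocytes, read in the lungs of rats that had breathed fracking sand dust or filtered air. They were chosen by name: the granule genes Prf1, Gzma, Gzmb, Gzmk and Nkg7, the receptor genes Klrd1 and Klrk1, the chemokine gene Ccl5, and the transcription factor genes Eomes and Tbx21. All 10 were among the 30045 gene symbols of both deposited count tables, and all 10 passed the filter on low counts in both studies. The animals were male Sprague-Dawley rats, exposed on 4 days for 6 hours at a time inside a whole-body chamber and killed 1, 7 or 27 days later. Groups of the 10 mg/m3 study had 5 rats each at days 1 and 7 and 4 each at day 27, and the 30 mg/m3 study held 6 rats in each of its 6 groups. Each dose had air rats of its own, and a piece of lung was sequenced from each of the 64 animals.

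NK cells and cytotoxic T cells kill target cells by releasing granules onto them. Perforin, the product of Prf1, opens the target's membrane, and granzymes, a family of serine proteases, enter and cleave proteins inside it. NK cells are resident in the normal lung and carry these granules ready made, while T cells build up the same machinery after activation, so none of the genes marks NK cells alone.

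Summed over genes, a library held 3420235 to 12359518 counts, the fewest being those of dust rat 27 (numbered as in its title), killed at day 1 after 10 mg/m3. Markers of the labelled tissue were abundant: Sftpc of alveolar type 2 cells averaged 9778 CPM (a gene's counts relative to the TMM-scaled total of its library) and Ager of alveolar type 1 cells 1763 CPM. Of the 9 listed alveolar macrophage markers found in the tables, 8 were above 0 in every library, led by Mrc1 at a mean of 268.2 CPM, and Marco was at 0 in 46 libraries. In every comparison the dust rats carried higher title numbers than the air rats, so an effect of that number and one of the dust cannot be told apart.

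Stretches of DNA upstream of the granule genes are shown first. Whether they bear on how these genes varied together from rat to rat, described further on, was not tested. RefSeq's promoter table (assembly GRCr8) held entries for 8 of the 10 members. The 250 bases before the annotated start are printed for Prf1 at chr20:29788790-29789039 (plus strand), Gzma at chr2:46485697-46485946 (minus strand), Gzmb at chr15:34462470-34462719 (minus strand), Gzmk at chr2:46582016-46582265 (minus strand) and Nkg7 at chr1:102981247-102981496 (plus strand), each 5′ to 3′ on the gene's strand. Capitals mark TGTGGT, the core letters bound by RUNX factors, or its reverse complement ACCACA.
Prf1: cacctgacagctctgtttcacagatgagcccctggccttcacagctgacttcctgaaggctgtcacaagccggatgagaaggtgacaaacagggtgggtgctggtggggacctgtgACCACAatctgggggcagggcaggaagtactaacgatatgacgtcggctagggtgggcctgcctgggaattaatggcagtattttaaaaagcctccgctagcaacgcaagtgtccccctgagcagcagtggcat
Gzma: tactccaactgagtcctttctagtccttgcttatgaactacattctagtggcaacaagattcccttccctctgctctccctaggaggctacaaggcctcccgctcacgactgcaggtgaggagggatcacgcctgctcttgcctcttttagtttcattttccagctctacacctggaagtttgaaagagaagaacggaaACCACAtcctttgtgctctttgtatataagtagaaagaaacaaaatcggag
Gzmb: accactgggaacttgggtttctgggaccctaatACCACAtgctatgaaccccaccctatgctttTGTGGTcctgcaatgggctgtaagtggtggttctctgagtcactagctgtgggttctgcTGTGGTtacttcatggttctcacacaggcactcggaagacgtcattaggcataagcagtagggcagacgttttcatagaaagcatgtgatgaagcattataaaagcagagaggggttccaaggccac
Gzmk: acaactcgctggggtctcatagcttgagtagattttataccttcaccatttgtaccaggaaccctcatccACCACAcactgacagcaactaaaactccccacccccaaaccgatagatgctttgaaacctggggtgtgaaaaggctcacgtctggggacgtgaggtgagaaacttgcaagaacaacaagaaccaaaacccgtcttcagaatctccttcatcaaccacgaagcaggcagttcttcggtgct
Nkg7: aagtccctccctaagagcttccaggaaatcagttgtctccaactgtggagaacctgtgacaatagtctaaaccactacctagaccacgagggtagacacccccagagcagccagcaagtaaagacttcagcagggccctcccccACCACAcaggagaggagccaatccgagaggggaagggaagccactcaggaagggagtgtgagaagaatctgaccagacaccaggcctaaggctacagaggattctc
TGTGGT was found on either strand in 7 of these 8 windows, the exception being Tbx21, and in 14.5% of all 33469 promoter windows of that length in the table. It was 1 of 11 strings searched on both strands and was picked for display after the matches were seen. The match in Prf1 began 134 bases before the start and that in Nkg7 106 bases before it, while Gzmb held 3 matches, at 217, 186 and 127 bases. TATAAA, the TATA box, was found in Gzmb, 30 bases before the start, and on the other strand of Gzmk, against 12.9% of all windows, with no overlap with a TGTGGT match. The T-box letters AGGTGTGA were found in 0 of 8 windows and in 0.959% of all, and the shorter GGTGTG, contained in them, in Gzmk alone and in 15.4% of all. GGAAGT, a core of ETS factor sites, was found in Prf1 and Gzma and in 19.2% of all windows. A match is a run of letters in a window, not a measured binding site.

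The ratio of the highest to the lowest of the 12 group means ran from 1.21 for Nkg7 to 2.31 for Eomes. Prf1 had its lowest group mean in dust at day 1 of the 30 mg/m3 study, 47.3 ± 12.8 CPM (SD, n = 6), and its highest in that study's air rats of day 27, 58.2 ± 10.6 CPM (SD, n = 6). Gzma, granzyme A, ranged from 15.9 ± 6.62 CPM (SD, n = 5) in dust at day 1 of the 10 mg/m3 study to 20.1 ± 5.38 CPM (SD, n = 4) in dust at day 27 of that study. In both genes the lowest group's rats overlapped those of the highest. Gzmb, granzyme B, ranged from 2.71 ± 1.03 CPM (SD, n = 5) in dust at day 7 and 10 mg/m3 to 5.24 ± 3.31 CPM (SD, n = 6) in dust at day 1 and 30 mg/m3. Gzmk, granzyme K, ranged from 20.2 ± 2.98 CPM (SD, n = 5) in dust at day 7 and 10 mg/m3 to 26.9 ± 8.94 CPM (SD, n = 6) in dust at day 1 and 30 mg/m3. Nkg7, which encodes a granule membrane protein needed for granule release, ranged from 17.4 ± 2.44 CPM (SD, n = 6) in dust at day 7 and 30 mg/m3 to 20.9 ± 3.57 CPM (SD, n = 5) in dust at day 1 and 10 mg/m3. When the 12 group means of each granule gene were put in order, all 11 gaps between neighbours were smaller than the smaller of the neighbours' SDs; sorting makes such gaps small, so they say nothing of the distance between the ends of the order.

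Among the receptors, the chemokine and the transcription factors the same ratio ran from 1.5 for Klrk1 to 2.31 for Eomes, and among the granule genes from 1.21 for Nkg7 to 1.93 for Gzmb. Klrd1 encodes CD94, which pairs with NKG2 chains to read MHC class I molecules, and it ranged from 4.79 ± 0.762 CPM (SD, n = 5) in dust at day 1 and 10 mg/m3 to 9.27 ± 3.12 CPM (SD, n = 5) in dust at day 7 of that study. Klrk1 encodes the activating receptor NKG2D and ranged from 22.2 ± 2.50 CPM (SD, n = 5) in dust at day 1 and 10 mg/m3 to 33.3 ± 6.64 CPM (SD, n = 6) in dust at day 27 and 30 mg/m3. Both receptors had their lowest mean in the same group. Ccl5, a chemokine that draws T cells and monocytes, ranged from 22.8 ± 6.38 CPM (SD, n = 6) in dust at day 1 and 30 mg/m3 to 46.1 ± 5.15 CPM (SD, n = 4) in dust at day 27 and 10 mg/m3. Eomes, a T-box factor of NK cells and memory CD8 T cells, ranged from 2.20 ± 0.530 CPM (SD, n = 6) in dust at day 7 and 30 mg/m3 to 5.07 ± 0.313 CPM (SD, n = 4) in the day 27 air rats at 10 mg/m3. Tbx21, which encodes the T-box factor T-bet, ranged from 8.04 ± 2.01 CPM (SD, n = 6) in dust at day 1 to 12.3 ± 2.51 CPM (SD, n = 6) in dust at day 27, both at 30 mg/m3. Neighbouring group means lay within the smaller SD in all 11 gaps for Tbx21, 10 for Ccl5 and Eomes, and 9 for Klrd1 and Klrk1. Levels set across the 2 studies rest on separate scaling factors.

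**Figure D1:**
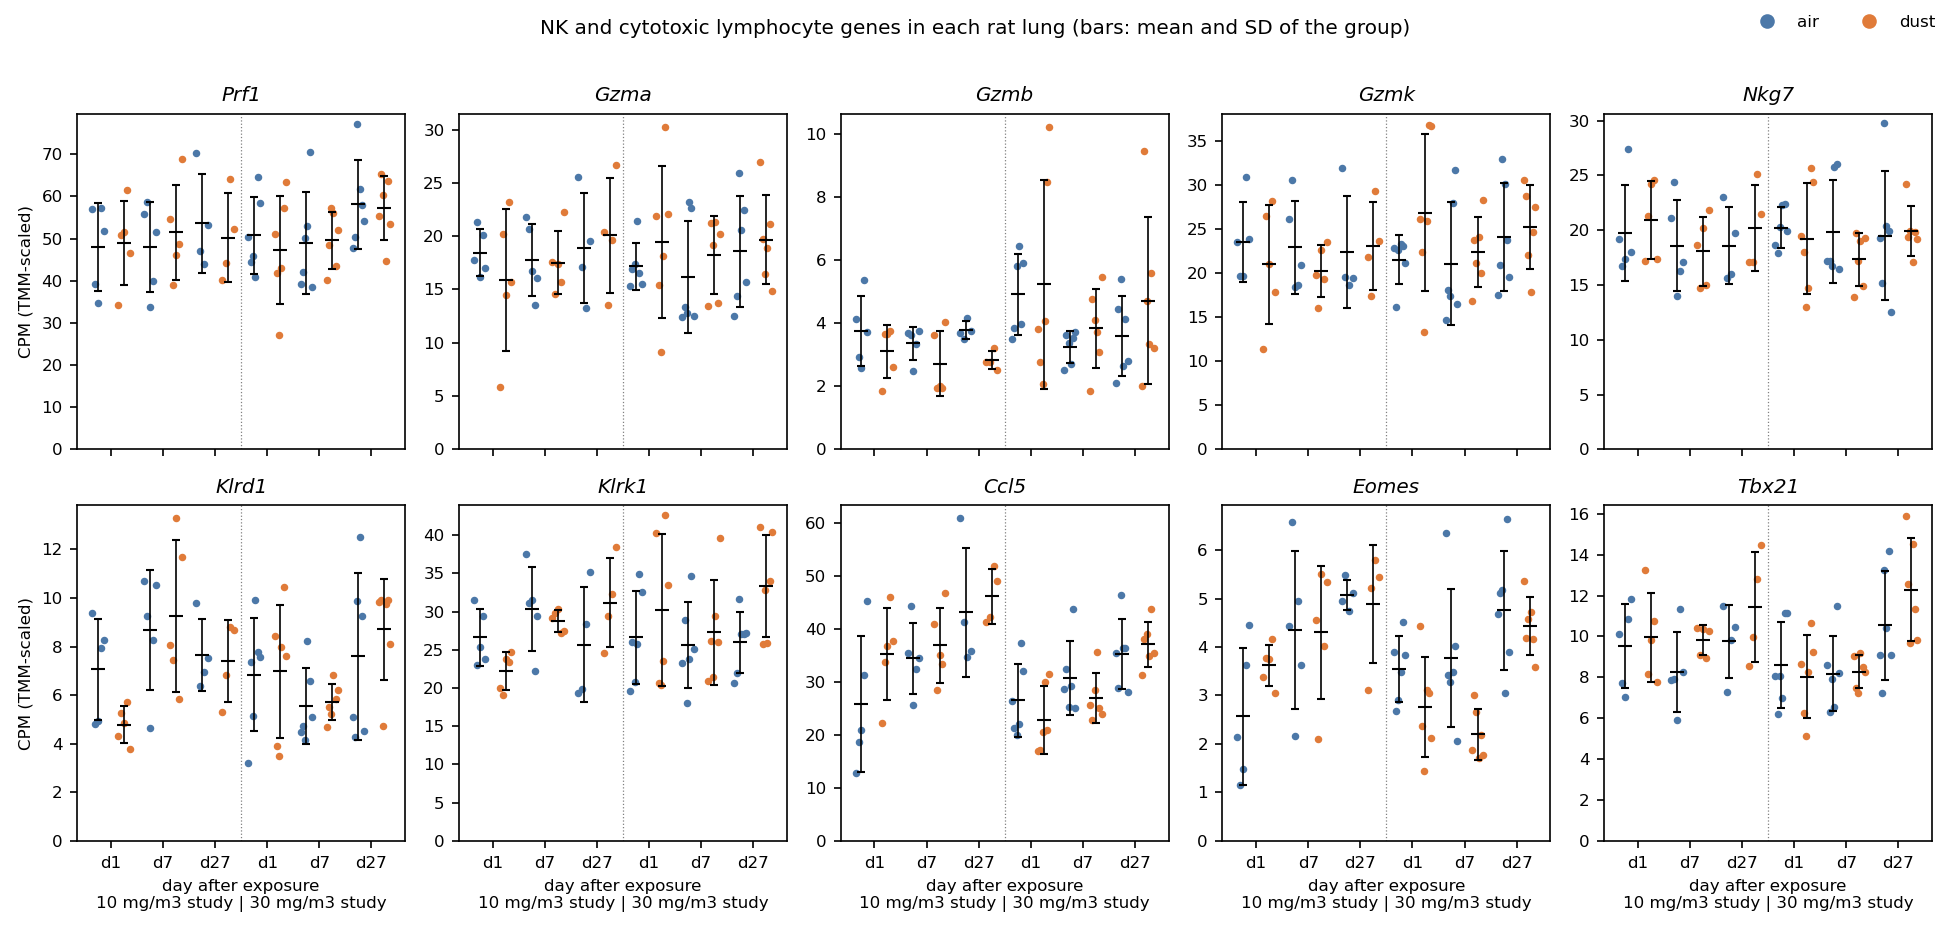
Level of each of the 10 genes in CPM (vertical axes, from 0) in every rat, with groups along the horizontal axis by day in the 10 mg/m3 study and, right of the dotted line, the 30 mg/m3 study. Blue points are air rats, orange points dust rats, and black bars the group mean and SD; air and dust points overlap in every panel and pair except Gzmb at day 27 of the 10 mg/m3 study, where the highest dust rat is at 3.22 CPM and the lowest air rat at 3.49 CPM.

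The comparison of dust with air on the same day asks whether inhaled dust changed these transcripts. None of the 10 genes passed the test on any day at either dose (edgeR quasi-likelihood test, Benjamini-Hochberg adjustment over all genes tested, threshold 0.05). At 10 mg/m3 the count was 0 of 10 at day 1, where 0.128% of all 15668 genes passed, and 0 of 10 at days 7 and 27, where 0% passed. At 30 mg/m3 it was 0 of 10 at days 1 and 27, where 0% of 15551 genes passed, and 0 of 10 at day 7, where 0.0643% passed. With so few genes called in the whole table, a count of 0 among 10 says little about these genes in particular. limma voom also called 0 of 10 in each of these 6 comparisons, and DESeq2 called 0, giving no adjusted p to Gzmb and Eomes at day 1 and 10 mg/m3.

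The 60 estimates, 10 genes in 6 comparisons, put limits on the size of a change. Of these, 36 were above 0 and 24 below, and 2 had an unadjusted p under 0.05. At 10 mg/m3 the unadjusted count was 1 of 10 at day 1 (18.9% of all genes), 0 of 10 at day 7 (3.96%) and 0 of 10 at day 27 (2.36%), and at 30 mg/m3 it was 0 of 10 (15%), 1 of 10 (4.99%) and 0 of 10 (7.34%). Air and dust levels did not overlap for 0, 0 and 1 of 10 members at days 1, 7 and 27 of the 10 mg/m3 study (3.43%, 1.36% and 1.97% of all genes) and for 0 of 10 on each day at 30 mg/m3 (0.367%, 0.714% and 0.463%). The 95% confidence interval of the fold change lay within 2-fold in either direction for 56 of the 60 and within 1.5-fold for 33 of them. The most extreme bounds were 0.427-fold, for Eomes at day 7 and 30 mg/m3, and 2.17-fold, for Eomes at day 1 and 10 mg/m3. The median log2 change of the 10 genes ran from -0.05 at day 1 and 10 mg/m3, where that of all genes was -0.01, to 0.09 at day 27 and 30 mg/m3, where that of all genes was 0.00. In bulk lung, fewer cytotoxic cells and less RNA per cell cannot be told apart.

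**Figure D2:**
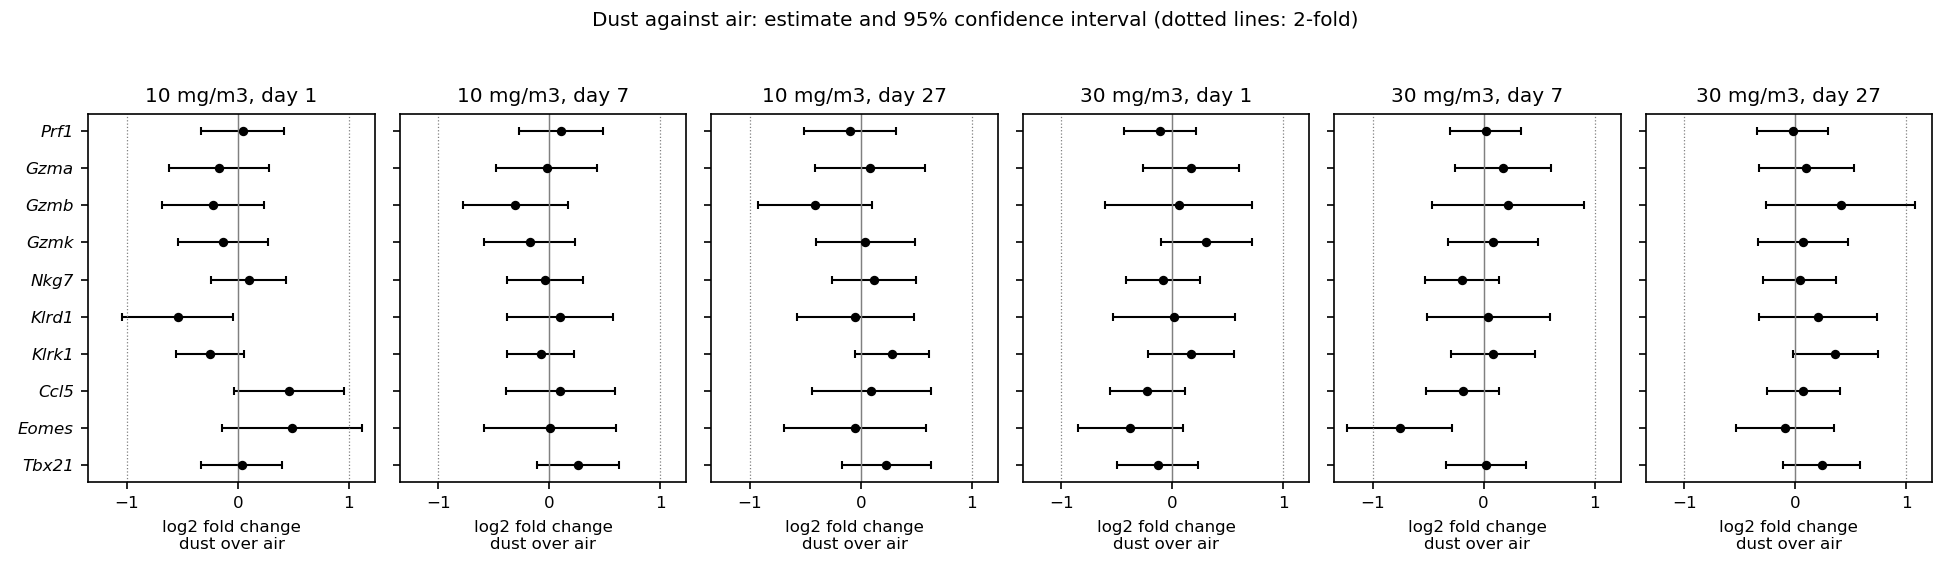
Log2 fold change of dust over air (horizontal axis) for the 10 genes in the 6 comparisons of a dose and a day, as the edgeR estimate with its 95% confidence interval; the grey line marks no change and the dotted lines a 2-fold change. The intervals of Klrd1 at day 1 and 10 mg/m3 and of Eomes at day 7 and 30 mg/m3 leave out 0, and neither passed after adjustment over all genes.

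Among the granule genes Prf1 lay closest to no change. In the 10 mg/m3 study at day 1 it read 56.98, 39.3, 34.7, 57.4 and 51.7 CPM in air rats 17 to 21 and 34.1, 50.9, 51.4, 61.6 and 46.6 CPM in dust rats 27, 29, 30, 31 and 32. In the 30 mg/m3 study at day 1 the lowest, median and highest were 40.9, 48.1 and 64.6 CPM in air and 27.2, 46.99 and 63.4 CPM in dust. The ranges overlapped almost fully at both doses. The estimates at the 6 time and dose pairs ran from -0.11 ± 0.160 at day 1 and 30 mg/m3 to 0.10 ± 0.184 at day 7 and 10 mg/m3 (log2, SE), and the edgeR adjusted p was at least 0.752.

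Gzmb was the granule gene whose estimates differed most between the studies. At day 27 of the 10 mg/m3 study it read 3.68, 3.49, 4.17 and 3.76 CPM in air rats 1, 3, 5 and 6 and 2.77, 2.78, 3.22 and 2.54 CPM in dust rats 13 to 16. Every dust rat was below every air rat, the only member and day at which air and dust did not overlap. The change was -0.41 ± 0.250 (log2, SE) with an edgeR adjusted p of 1. All 3 daily estimates at 10 mg/m3 were below 0 and their mean was -0.31 ± 0.136 (unadjusted p = 0.0295, edgeR adjusted p = 0.511). At 30 mg/m3 all 3 were above 0 and the mean was 0.23 ± 0.1915 (edgeR adjusted p = 0.544). The difference between the doses, 30 minus 10 mg/m3, was 0.54 ± 0.256 (unadjusted p = 0.038, edgeR adjusted p = 0.198), so it did not pass. Counts for Gzmb were low, from 6 to 86 per library, and at 30 mg/m3 2 dust rats of day 1 stood high, rat 61 with 8.49 and rat 62 with 10.2 CPM, as did dust rat 90 of day 27 with 9.47 CPM. Reads of the close relative Gzmbl3, with 2 to 28 counts per library, could be split with Gzmb at the counting step.

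None of the estimates of Gzma, Gzmk and Nkg7 had a 95% interval that left out 0. At day 1 and 30 mg/m3 Gzmk had its lowest, median and highest level at 16.1, 22.7 and 23.3 CPM in air and at 13.3, 26.0 and 36.8 CPM in dust. Dust rats were thus both the lowest and the highest, and the change was 0.31 ± 0.202 (log2, SE; edgeR adjusted p = 0.448), the highest of any member at that dose and day. The other 5 estimates of Gzmk ran from -0.18 ± 0.1995 to 0.09 ± 0.201. The 6 estimates of Gzma ran from -0.17 ± 0.219 to 0.17 ± 0.212. Those of Nkg7 ran from -0.20 ± 0.163 to 0.12 ± 0.184.

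The receptor Klrd1 gave the lowest estimate of the 10 genes at day 1 and 10 mg/m3. Air rats 17 to 21 read 9.37, 4.81, 4.925, 7.94 and 8.29 CPM, and dust rats 27, 29, 30, 31 and 32 read 4.31, 5.27, 4.87, 5.705 and 3.78 CPM. The dust rats lay low and close together, and the groups overlapped because air rats 18 and 19 were as low as they were. The change was -0.54 ± 0.245 (log2, SE; unadjusted p = 0.0354, edgeR adjusted p = 0.228). It was 0.10 ± 0.232 at day 7 and -0.05 ± 0.259 at day 27 of the same study, and between 0.02 and 0.21 at 30 mg/m3.

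Klrk1, the other receptor, was estimated at -0.25 ± 0.149 at day 1 and 0.28 ± 0.163 at day 27 of the 10 mg/m3 study (log2, SE; edgeR adjusted p = 0.366 and 1). Its test for a dust effect that depends on the day had the lowest unadjusted p of the 10 genes at that dose, 0.0675. At day 27 and 30 mg/m3 the lowest, median and highest were 20.7, 27.1 and 31.7 CPM in air and 25.8, 33.4 and 41.0 CPM in dust. The dust group lay higher with overlap, and the change of 0.36 ± 0.187 had an edgeR adjusted p of 0.693.

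Ccl5 was estimated higher in dust at 10 mg/m3 on all 3 days. At day 1 it read 12.8, 18.6, 20.8, 31.2 and 45.3 CPM in air rats 17 to 21 and 22.2, 33.8, 36.7, 46.0 and 37.6 CPM in dust rats 27, 29, 30, 31 and 32. Air rat 21 was close to the highest dust rat, while 3 of the 5 air rats were below every dust rat. The change was 0.46 ± 0.240 (log2, SE; edgeR adjusted p = 0.295), and without air rat 21 it was 0.77 with an edgeR adjusted p of 0.033, so the call turned on that rat. In rat 21 mitochondrial ribosomal RNA held 3.01% of counts, against 0.0961% to 0.314% in air rats 17 to 20 and 0.493% to 2.62% in the dust rats. Without rat 21 that share did not overlap between the groups, so it and the dust cannot be told apart in that fit. At 30 mg/m3 and day 1 the lowest, median and highest were 19.9, 24.2 and 37.3 CPM in air and 16.9, 20.8 and 31.5 CPM in dust, a change of -0.22 ± 0.168 (edgeR adjusted p = 0.507).

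Eomes gave the lowest unadjusted p of the members in the daily comparisons. At day 7 and 30 mg/m3 it read 6.35, 3.43, 3.27, 3.48, 4.03 and 2.06 CPM in air rats 65, 66, 68, 69, 70 and 71, and 1.87, 3.01, 2.66, 1.71, 2.18 and 1.77 CPM in dust rats 73 to 77 and 79. All dust rats were below 5 of the 6 air rats, and air rat 71 fell among them. The change was -0.76 ± 0.232 (log2, SE; unadjusted p = 0.00245, edgeR adjusted p = 0.357). At days 1 and 27 of that study it was -0.38 ± 0.233 and -0.09 ± 0.217, and the test that the effect depends on the day had an unadjusted p of 0.125. At 10 mg/m3 the estimates were 0.49 ± 0.307 at day 1, 0.01 ± 0.291 at day 7 and -0.05 ± 0.313 at day 27. With 11 to 62 counts per library, Eomes had the widest standard errors of the members at 10 mg/m3. At day 7 and 30 mg/m3 mitochondrial ribosomal RNA held 0.458% to 0.885% of counts in air and 0.109% to 0.453% in dust. That day the summed level of 10 heart muscle markers was 548.4 to 1883 CPM in air and 146.7 to 381.1 CPM in dust. Neither measure overlapped, so neither can be told apart from the dust in that comparison.

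Tbx21 encodes the other T-box factor of the list. At day 27 and 30 mg/m3 its lowest, median and highest levels were 7.25, 9.74 and 14.2 CPM in air and 9.69, 11.95 and 15.9 CPM in dust. The ranges overlapped, with a change of 0.24 ± 0.172 (log2, SE; edgeR adjusted p = 0.851). Its 6 estimates ran from -0.13 ± 0.180 to 0.26 ± 0.182.

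Pooling the 3 days of a study asks for a lasting effect. At 10 mg/m3 0 of 10 genes passed (0.0319% of all genes) and the unadjusted p was under 0.05 for 1 of 10, Gzmb (9.27% of all genes). At 30 mg/m3 0 of 10 passed (1.2% of all genes) and the unadjusted p was under 0.05 for 1 of 10, Eomes (17.8% of all genes). The mean change of Eomes there was -0.41 ± 0.131 (log2, SE), a fold of 0.753 with a 95% interval from 0.626 to 0.906 (edgeR adjusted p = 0.103). Without dust rat 57 of day 1, the highest of its group at 4.43 CPM, the Eomes change was -0.49 with an edgeR adjusted p of 0.041, and without air rats 51 and 53 together, which had counts on more genes than the other libraries, it was -0.44 with 0.0491. The mean includes day 7, where the mitochondrial ribosomal RNA share and the summed heart muscle markers did not overlap between air and dust. No other member's pooled 95% interval at 30 mg/m3 left out 0. The test for a dependence on day called 0 of 10 at each dose, where 0% of all genes passed, and its unadjusted p was under 0.05 for 0 of 10 (7.28% of all genes at 10 mg/m3 and 4.42% at 30 mg/m3).

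The doses were compared as the difference of the within-study effects, 30 minus 10 mg/m3. Each dose was a study with air rats of its own, so a difference of dose and one of study cannot be told apart. At day 1 the count was 0 of 10 although 10.4% of all 16190 genes passed, at days 7 and 27 it was 0 of 10 with 0% of all genes, and for the mean of the days 0 of 10 with 2.09%. An unadjusted p under 0.05 was reached by 2 of 10 at day 1 (28.2% of all genes), 1 at day 7 (8.02%), 0 at day 27 (1.75%) and 2 for the mean (22.4%). Ccl5 at day 1 differed by -0.67 ± 0.292 (log2, SE; edgeR adjusted p = 0.117) and Eomes by -0.85 ± 0.383 (edgeR adjusted p = 0.132), both estimated above 0 at 10 mg/m3 and below 0 at 30 mg/m3. Without air rat 21 of the 10 mg/m3 study both passed, Ccl5 at -1.02 (edgeR adjusted p = 0.0101) and Eomes at -1.19 (0.0284). Rat 21 is the air rat with the high mitochondrial ribosomal RNA share given above. Without dust rat 57, Eomes passed at -1.11 (edgeR adjusted p = 0.0492), and without air rats 51 and 53, Ccl5 passed at -0.83 (0.0493). Averaged over the days, Eomes differed by -0.56 ± 0.218 (unadjusted p = 0.0136, edgeR adjusted p = 0.126), and without air rat 21 by -0.66 (0.0486).

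Air rats killed at different times show how the genes behaved without dust. Ccl5 and Eomes were the members estimated higher at day 27 than at day 1 in both studies with the largest values. In the 10 mg/m3 study Eomes read 2.15, 1.151, 1.48, 3.62 and 4.45 CPM in air rats 17 to 21 of day 1 and 4.945, 5.48, 4.745 and 5.12 CPM in air rats 1, 3, 5 and 6 of day 27. All day 27 rats were above all day 1 rats (1 of 10 members, against 4.42% of all genes). The change was 0.97 ± 0.310 (log2, SE; unadjusted p = 0.00427, edgeR adjusted p = 0.0828). Ccl5 read 60.8, 41.2, 34.6 and 35.8 CPM in the same day 27 rats, above 4 of the 5 day 1 rats given earlier, a change of 0.73 ± 0.250 (edgeR adjusted p = 0.103).

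Over time in air, 0 of 10 members passed in the 10 mg/m3 study at day 27 against day 1 (2.97% of all genes) and at day 7 against day 1 (5.9%), and 0 of 10 in the 30 mg/m3 study (12.9% and 0.116%). At 10 mg/m3 the unadjusted p was under 0.05 for 2 of 10 at day 27 (18.8% of all genes) and 1 of 10 at day 7 (22.9%), and at 30 mg/m3 for 1 of 10 (30.1%) and 0 of 10 (12%). Levels of the 2 days did not overlap for 0 of 10 members in the other 3 comparisons, at day 7 in the 10 mg/m3 study (4.78%) and at days 7 and 27 in the 30 mg/m3 study (1.09% and 5.25%). DESeq2 and limma voom each called 2 of 10 at day 27 of the 10 mg/m3 study, Ccl5 (adjusted p = 0.0494 and 0.0483) and Eomes (0.0409 and 0.0411), as did edgeR without air rat 21 (Ccl5 at 1.04, adjusted p = 0.00401; Eomes at 1.27, adjusted p = 0.0105). At day 7 against day 1, leaving out that rat gave 0.71 for Ccl5 (edgeR adjusted p = 0.0401) and 1.04 for Eomes (0.035). In the 30 mg/m3 study the day 27 change was 0.40 ± 0.163 for Ccl5 (edgeR adjusted p = 0.0945; 0.0234 without air rat 54) and 0.41 ± 0.220 for Eomes (0.21). The percentage of counts from mitochondrial ribosomal RNA moved with day in the 10 mg/m3 study, from 0.0961% to 3.01% in air at day 1 and from 3.02% to 4% at day 27. With that share as a covariate, an alternative added after seeing the data, the day 27 change was 0.29 for Ccl5 and 0.48 for Eomes, with edgeR adjusted p of 0.84 and 0.787; the part of the share in the result was not tested further.

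Within a group, a rat that was high for a given member tended to be high for the others. After each group's mean was subtracted from log2(CPM + 0.5), all 45 pairs of members had a Pearson r above 0 over the 64 rats, with a median of 0.461. Within the 10 mg/m3 study it was 0.536, within the other 0.493, and the median over all pairs of genes was -0.0025. Within the 10 mg/m3 study 2 pairs were below 0, Klrk1 with Ccl5 (-0.138) and Gzma with Tbx21 (-0.121). Subtracting group means removes any difference between air and dust, so these values do not bear on exposure. These values are descriptions, since members read in the same library share its depth and scaling. Gzmk and Nkg7 had r = 0.832 (Spearman's rho = 0.832), and Gzma and Gzmk, which are neighbours with 0 protein-coding genes between them in GRCr8, had r = 0.831 (rho = 0.783). Klrk1 and Ccl5 had the lowest r, 0.105.

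Against the mean of the other 9 members, r was 0.859 for Prf1 (0.909 at 10 mg/m3 and 0.825 at 30 mg/m3), 0.830 for Nkg7 and 0.829 for Gzmk. For Gzma it was 0.702, with 0.533 at 10 mg/m3 and 0.836 at 30 mg/m3, and for Klrd1 0.696, with 0.744 and 0.673. The other members ranged from 0.454 for Eomes (0.688 and 0.276) to 0.543 for Tbx21, with 0.537 for Gzmb, 0.525 for Ccl5 and 0.462 for Klrk1 (0.162 and 0.636). The gene outside the list with the highest r was Gzmm, granzyme M, with r = 0.818 (rho = 0.831, and r = 0.788 without the 2 rats farthest from the median, 59 and 61). Next came Klrb1a, an NKR-P1 receptor gene, with 0.789 (rho = 0.750), and Ncr1, which encodes the NK receptor NKp46, with 0.737 (rho = 0.708). LOC499229 followed with 0.709, the kinase gene Txk with 0.706, Nipal1, its neighbour in GRCr8, with 0.684, Il2rb, which encodes a receptor chain for IL-2 and IL-15, with 0.658, and RGD1562667 with 0.647. Among 15323 genes compared, 37 outside the list reached 0.5. None of these 8 genes passed in any of the 6 dust comparisons.

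The members' mean was also set beside the means of other gene lists and beside measures of the library. The mean of 14 NK receptor genes had r = 0.780 with the mean of the 10 members (rho = 0.768), and was 0.773 and 0.799 in the 2 studies. The mean of 13 other granule genes had r = 0.646 (rho = 0.655). The mean of 17 transcription factor genes of NK and effector T cells had r = 0.023 (rho = 0.069). That list holds abundant genes such as Ets1 and Zeb2, at means of 644.4 and 439.5 CPM in bulk lung. It leaves out the members Eomes and Tbx21, which had r = 0.454 and 0.543 with the mean of the other members. Means of the adaptor, death receptor and homing lists had r = 0.446, 0.452 and 0.532. The mean of 16 T cell markers had r = 0.196 (rho = 0.188; -0.041 at 10 mg/m3 and 0.299 at 30 mg/m3) and that of 11 B cell markers 0.206 (rho = 0.249). Neutrophil markers had r = 0.336 (0.217 at 10 mg/m3 and 0.402 at 30 mg/m3) and erythroid markers 0.321 (-0.024 and 0.428). Library total had r = 0.013, which pools 0.354 at 10 mg/m3 and -0.233 at 30 mg/m3, the mitochondrial ribosomal RNA share -0.033 and the number in the title 0.254 (rho = 0.275). The mean of 14 genes for cytokines that act on cytotoxic cells and their receptors had r = 0.570 (rho = 0.516), with 0.779 at 30 mg/m3 and 0.176 at 10 mg/m3.

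**Figure D3:**
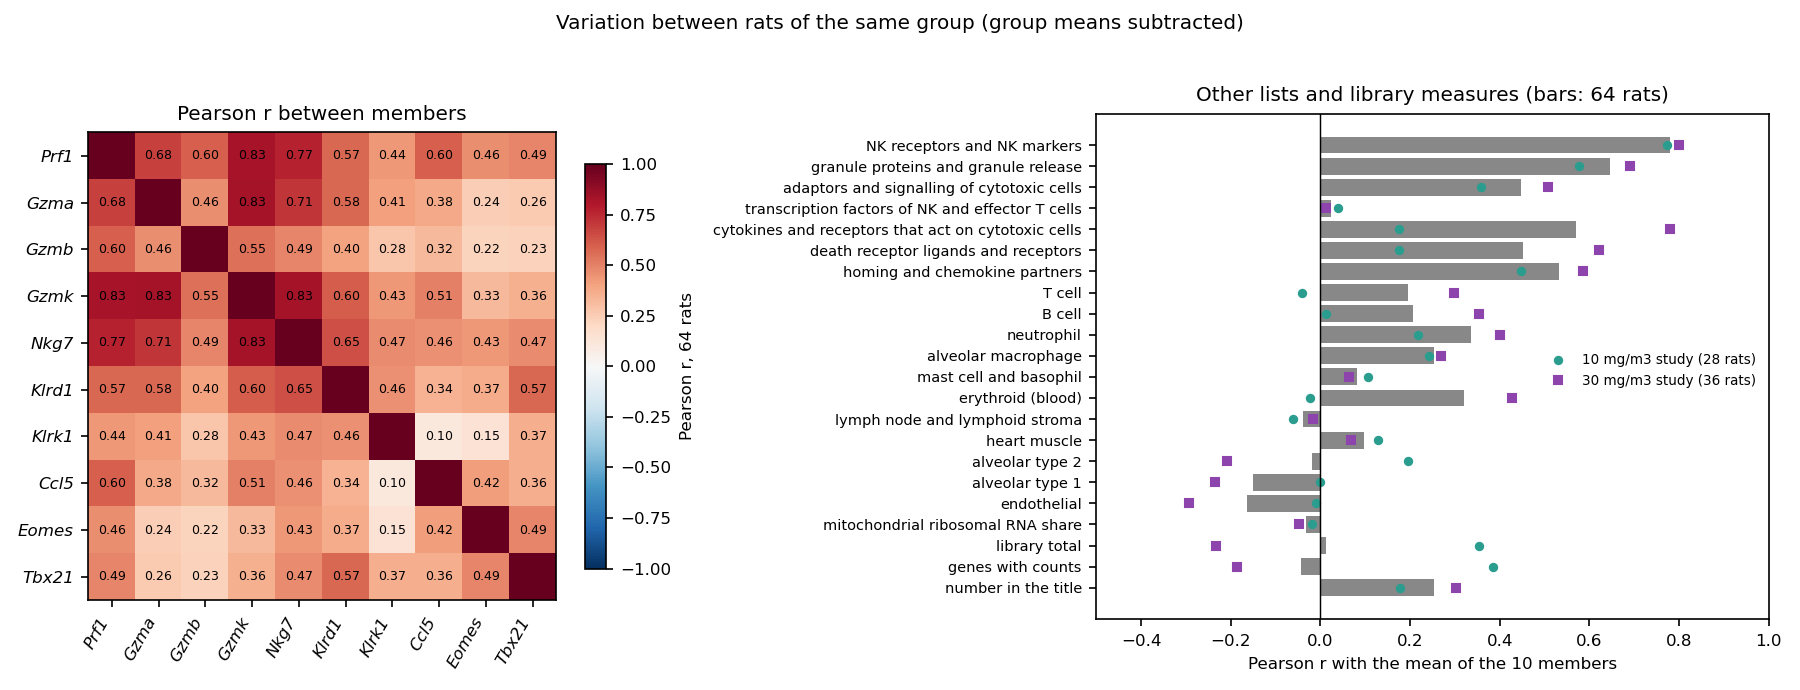
Left, Pearson r between each pair of the 10 genes over 64 rats after subtracting group means, on a colour scale from -1 to 1; right, Pearson r of the mean of the 10 genes with the mean of each other gene list and with measures of the library (bars: 64 rats; circles: 28 rats of the 10 mg/m3 study; squares: 36 rats of the 30 mg/m3 study). All pairs on the left are above 0, and on the right the NK receptor list has the longest bar, at 0.780.

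The same pattern shows rat by rat. Of the 64 rats, 19 had at least 8 of the 10 members above their group mean and 18 had at least 8 below, including 7 with all 10 above and 4 with all 10 below. In dust at day 1 and 30 mg/m3, rat 59 was the lowest of its group for 9 members and rat 61 the highest for 6. In dust at day 1 and 10 mg/m3, rat 31 was the highest for 8 members and rat 27, the library with the lowest total, the lowest for 6. Among the day 7 air rats at 10 mg/m3, rat 36 was the lowest for 8. The mean of the 10 members, in log2(CPM + 0.5), ran from 3.12 in rat 59 to 4.38 in rat 83, an air rat of day 27 in the 30 mg/m3 study.

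The wider set of cytotoxic cell genes was read from 7 lists of 136 genes, of which 133 were in the tables. Of these, 2 of 109 tested genes passed at day 1 and 10 mg/m3 (1.83%, against 0.128% of all genes), 1 rising and 1 falling, and 0 in the other 5 daily comparisons. The lists were chosen with earlier results of these data known, so that share is not independent evidence about them. For the mean over days 0 of 109 passed at 10 mg/m3 and 1 of 111 at 30 mg/m3 (0.901%, against 1.2% of all genes). The list of NK receptors and markers had 14 genes tested at 10 mg/m3 and 16 at 30 mg/m3, with 0 called in each daily comparison. Its median log2 change was -0.24 at day 1 and 10 mg/m3, with 2 of 14 estimates above 0, against -0.01 for all genes. At day 27 and 30 mg/m3 it was 0.21, with 11 of 16 above 0, against a median of 0.00 for all genes. Genes of this list were read in the same rats, so these signs are not independent of each other. The remaining daily comparisons are not given for this list, so these medians do not describe a course over days or doses. The granule list, 14 genes at 10 mg/m3 and 13 at 30 mg/m3, and the death receptor list, 8 genes at each dose, also had 0 called. Abundant genes of the granule list include Ctsc, which encodes the protease that activates granzymes, and Srgn, the granule proteoglycan. They were estimated at 0.01 ± 0.096 and -0.10 ± 0.131 at day 1 and 10 mg/m3 (log2, SE). In bulk lung their transcripts need not come from cytotoxic cells.

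Itgae, which encodes the CD103 integrin chain that holds lymphocytes and dendritic cells to epithelium, fell at day 1 and 10 mg/m3. Its lowest, median and highest levels were 10.5, 12.1 and 15.9 CPM in 5 air rats and 5.54, 7.10 and 8.93 CPM in 5 dust rats. The groups did not overlap, and the change was -0.80 ± 0.141 (log2, SE; edgeR adjusted p = 0.0195). The Itgae call was lost without air rat 17 or 19 (adjusted p = 0.0684 and 0.0739) and without dust rat 29 or 31 (0.0579 and 0.0868). The Itgae change was 0.24 ± 0.121 at day 1 and 30 mg/m3 (edgeR adjusted p = 0.338), and the difference between the doses, each a study of its own, was 1.05 ± 0.181 (edgeR adjusted p = 0.00186). Its day 1 mean was 12.7 CPM in air and 7.19 CPM in dust at 10 mg/m3, and 8.51 CPM in air and 9.98 CPM in dust at 30 mg/m3. The 12.7 CPM was the highest and the 7.19 CPM the lowest of the 12 group means. Air rats of the 10 mg/m3 study averaged 9.935 CPM at day 7 and 9.28 CPM at day 27. In day 1 air rats 17 to 20 of that study mitochondrial ribosomal RNA held 0.0961% to 0.314% of counts. It held 3.01% in air rat 21 and 0.493% to 2.62% in the dust rats of that day. The part of that share in the comparison was not tested further. At day 1 and 10 mg/m3 the summed level of 17 T cell markers ran from 171.7 to 204.7 CPM in air rats and from 166.9 to 209.2 CPM in dust rats. Bhlhe40, a transcription factor of activated lymphocytes and of the circadian clock, rose in the same comparison from 26.1 ± 1.69 to 36.5 ± 1.64 CPM (SD, n = 5 each), by 0.48 ± 0.085 (log2, SE; edgeR adjusted p = 0.0195). Its call was lost without air rat 17, 18 or 19 (adjusted p = 0.0684, 0.0884 and 0.0657) and without dust rat 29, 31 or 32 (0.0579, 0.0658 and 0.0507). Among the 10 mg/m3 groups the day 1 air rats had the lowest Bhlhe40 mean. Later air rats averaged 35.4 CPM at day 7 and 34.6 CPM at day 27, near the day 1 dust mean. Their change from day 1 was 0.44 ± 0.084 and 0.41 ± 0.089 (log2, SE; edgeR adjusted p = 0.00479 and 0.0171). Dust rats averaged 34.4 CPM at day 7 and 40.3 CPM at day 27, where they did not overlap the air rats. The cause of the low day 1 air level was not tested.

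Il15, the cytokine on which NK cells depend for survival, rose in the mean of the 3 days at 30 mg/m3, by 0.32 ± 0.080 (log2, SE; edgeR adjusted p = 0.0437). At day 1 its lowest, median and highest levels were 8.55, 9.44 and 10.8 CPM in 6 air rats and 11.9, 13.25 and 16.8 CPM in 6 dust rats. Every dust rat was above every air rat that day, and the change was 0.52 ± 0.141 (edgeR adjusted p = 0.169 for that day alone). At days 7 and 27 the groups overlapped, with means of 12.5 and 9.97 CPM in air and 13.6 and 12.4 CPM in dust. At 10 mg/m3 the day 1 change was -0.44 ± 0.164 (edgeR adjusted p = 0.153), and the difference between the doses at day 1 was 0.98 ± 0.219 (edgeR adjusted p = 0.00566). The day 1 means were 13.5 CPM in air and 9.84 CPM in dust at 10 mg/m3. They were 9.70 CPM in air and 13.95 CPM in dust at 30 mg/m3, and the 9.70 CPM was the lowest of the 12 group means. The Il15 call for the mean at 30 mg/m3 was lost in 24 of 43 alternatives. Among them was the loss of any of 21 single rats, with a change of 0.29 to 0.33. The edgeR adjusted p then ran from 0.0513 without dust rat 60 to 0.0806 without dust rat 96. It was up to 0.281 when the mitochondrial ribosomal RNA share was a covariate. At day 1 that share was 0.128% to 0.903% in air and 0.105% to 0.478% in dust. At day 7 it was 0.458% to 0.885% in air and 0.109% to 0.453% in dust, with no overlap. The share and the dust cannot be told apart that day. At day 27 it was 0.456% to 1.62% in air and 0.445% to 1.66% in dust. The receptor chain gene Il2rb was estimated at -0.02 ± 0.071 in the same mean and Il2rg at 0.03 ± 0.043.

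**Figure D4:**
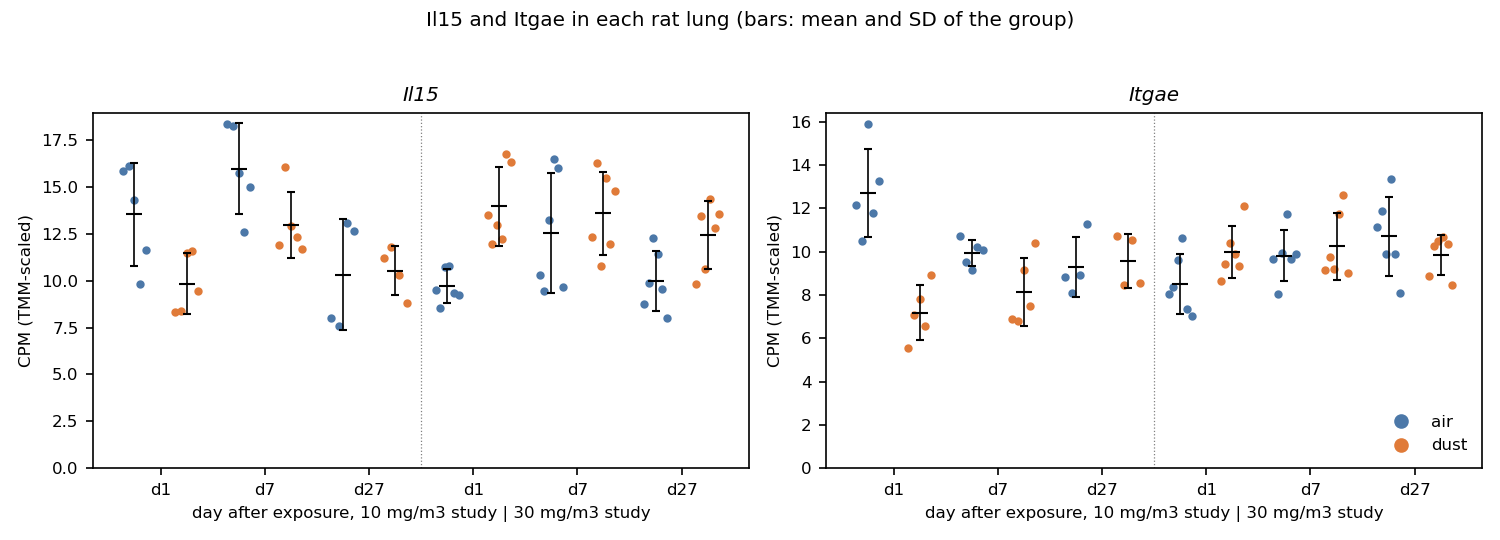
Levels of Il15 (left) and Itgae (right) in CPM (vertical axes, from 0) in every rat by day, the 10 mg/m3 study left and the 30 mg/m3 study right of the dotted line; blue points are air rats, orange points dust rats, bars the group mean and SD. Dust and air points are apart at day 1 for Il15 after 30 mg/m3 and for Itgae after 10 mg/m3.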

How the data were processed

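The authors deposited 1 table of raw counts per dose, with gene symbols in rows. HISAT2 2.1.0, HTSeq 0.6.1, Trimmomatic 0.35, bcl2fastq 2.19, SAMtools 1.8 and the build Rnor_6.0 are named in the submitters' processing notes. Overlapping genes are uncertain, since annotation and strand setting were not given in the sources used here. The labels describe a stranded total RNA kit with ribosomal RNA depletion. Groups and rat numbers came from the labels; that libraries are separate animals rests on the titles.

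The counts went into edgeR 4.0.16 under R 4.3.3 (TMM factors, filterByExpr with minimum count 10 and minimum total 15, robust quasi-likelihood F test, Benjamini-Hochberg adjustment over all genes). The 6 groups of a study entered 1 fit, and all 64 libraries entered 1 fit for dose differences. SE is the log2 change divided by the square root of F. Alternatives were DESeq2 1.42.0, limma 3.58.1 voom, RLE factors, library totals, no filter, the compared groups alone, each rat left out, air rats 51 and 53 left out and, added after seeing the data, a mitochondrial ribosomal RNA covariate. Covariation used a pseudocount of 0.5 CPM. The procedure was also run on simulated counts with changes added in dust at day 7. Those counts held no variation shared among genes, and the outcome is not given here. RefSeq tables of GRCr8 matched all 10 members by symbol.

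The members and lists were chosen with earlier results of these data known. Named beside the members are related genes past the threshold (at most 5 per list and comparison), abundant genes of each list, and the 8 genes with the highest r.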

Additional observations from a re-analysis of the deposited data

Results flagged for a closer look

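Of 120 sets of rats, 1 for each member and group, 5 held a rat set apart from its group by a gap above Dixon's 95% critical value; chance alone flags about 1 in 20. All 5 concern granule or receptor genes. Gzma was 21.4 CPM in air rat 53 of day 1 in the 30 mg/m3 study, and the next highest rat had 17.4 CPM. Gzmk was 16.1 CPM in air rat 51 of the same group, and the next lowest had 21.2 CPM. Gzmk was also 31.9 CPM in air rat 1 of day 27 in the 10 mg/m3 study, against 19.5 CPM in the next. Nkg7 was 27.4 CPM in air rat 20 of day 1 in that study, against 19.2 CPM. Klrd1 was 4.71 CPM in dust rat 91 of day 27 in the 30 mg/m3 study, against 8.11 CPM in the next lowest.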

How the results depend on the processing

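The count of members called in the 6 daily dust comparisons stayed at 0 under every alternative run but the loss of air rat 21 at day 1 and 10 mg/m3, which gave 1 (leaving out a rat: 0 to 1). For the mean of 3 days at 30 mg/m3 it was 1 without air rats 51 and 53 and 0 to 1 when rats were left out singly. For the dose difference at day 1 it was 1 without rats 51 and 53 and 0 to 2 with single rats left out, and for the difference of means 0 to 1. For air at day 27 against day 1 in the 10 mg/m3 study it was 2 with DESeq2, 2 with limma voom and 0 to 2 with single rats left out, at day 7 there 0 to 2, and at day 27 in the 30 mg/m3 study 0 to 1. Each of these calls was Ccl5 or Eomes, and 17 of 4880 refitted member values passed. The sign of 243 refitted values changed with both values within 1 SE of 0. With the share of mitochondrial ribosomal RNA as covariate, Klrk1 and Tbx21 at day 27 against day 1 in air at 10 mg/m3 took the opposite sign, 0.23 for Klrk1 and -0.42 for Tbx21, neither passing. The cause was not tested in any of these cases. The count over all genes moved by over 1.5 times in 175 refits, for example from 20 to between 0 and 1147 at day 1 and 10 mg/m3 and from 187 to between 1 and 1014 for the mean at 30 mg/m3. Itgae at day 1 and 10 mg/m3 held its call in 11 of 17 alternatives (adjusted p up to 0.198) and Bhlhe40 in 9 of 17 (up to 0.145). No paired analysis was possible because every title number is a rat of its own. Depth limits Gzmb and Eomes most, at medians of 30 and 31 counts per library.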

Other observations

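Some related genes changed with time in rats that breathed air, among them Bhlhe40 in the 10 mg/m3 study, given above. Between day 1 and day 27, 6 of 109 tested genes of the 7 cytotoxic cell lists passed in the 10 mg/m3 study, all 6 rising (5.5%, against 2.97% of all genes), and 9 of 111 in the 30 mg/m3 study, 2 rising and 7 falling (8.11%, against 12.9% of all genes). Rab27a, which encodes a GTPase needed to dock granules at the membrane, rose by 1.26 ± 0.271 (log2, SE; edgeR adjusted p = 0.0172) in the 10 mg/m3 study and was estimated at 0.76 ± 0.288 (adjusted p = 0.0746) in the 30 mg/m3 study. The Rab27a call was lost without air rat 18, 19 or 5 (adjusted p = 0.0717, 0.0576 and 0.059) and with the share of mitochondrial ribosomal RNA as covariate (0.28, adjusted p = 0.703). Zfp683, which encodes Hobit, a factor of tissue-resident lymphocytes, rose by 1.25 ± 0.379 (edgeR adjusted p = 0.0254) in the 30 mg/m3 study and was estimated at 0.54 ± 0.385 (adjusted p = 0.47) in the 10 mg/m3 study. The Zfp683 call was lost without air rat 49, 53 or 87 (adjusted p = 0.0615, 0.0506 and 0.0572). Falling in the 30 mg/m3 study were Serpinb9 (-0.33), Vamp7 (-0.24) and Lamp1 (-0.21), all from the granule list. The Serpinb9 call was lost without air rat 85 (edgeR adjusted p = 0.0508) and the Vamp7 call without air rat 52 (0.0548). Over all libraries Rab27a averaged 69.5 CPM, Vamp7 92.4, Serpinb9 261.9 and Lamp1 658.8 CPM. In bulk lung the cells that gave these transcripts cannot be told, so the changes need not lie in cytotoxic cells.

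Between the doses at day 1, 12 of 113 tested genes of these lists passed (10.6%, against 10.4% of all genes), 3 with a positive and 9 with a negative difference. Besides Il15 and Itgae, the chemokine receptor gene Cxcr6 had a positive difference, 0.97 ± 0.270 (edgeR adjusted p = 0.0192), which did not pass without air rat 17 (0.0586) or air rat 55 (0.0528). The integrin gene Itgal had a difference of -0.68 ± 0.162 (edgeR adjusted p = 0.00883) and the kinase gene Syk one of -0.58 ± 0.152 (adjusted p = 0.0135).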
